A study of Homo sapiens with 11 samples.

Results

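Peaks of the RNA-binding protein ZFP36L2 that the authors annotated to a splice site were examined in 2 acute myeloid leukaemia cell lines. Members were all entries of the 4 deposited tables of enriched peaks over input whose annotation names a 5' or a 3' splice site. There were 918 of them among 67083 peaks. The tables hold the authors' log2 fold of each immunoprecipitate over input and its −log10 p. Only peaks for which both values are at least 3 are in them. The distance from an exon boundary that makes a peak a splice site peak was not given in the sources used here, so the class was taken as annotated.

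ZFP36L2 immunoprecipitates were made in duplicate from MOLM13 and from THP1, both established human lines of acute myeloid leukaemia grown without a labelled treatment or genotype change. The controls were 2 immunoprecipitates with IgG per line, which measure RNA held by a nonspecific antibody, and size-matched input, lysate taken before immunoprecipitation, with 2 libraries for MOLM13 and 1 for THP1. The method was eCLIP, in which ultraviolet light fixes proteins to RNA and the fragments bound to the precipitated protein are sequenced. Each line is a single cell line, and the protocol describes library steps done in duplicate without naming separate cultures, so the spread between replicates may be technical. THP1 had a single input library, and whether both of its tables rest on it is not stated.

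ZFP36L2 belongs to the TIS11 family of zinc finger proteins, known for binding AU-rich elements in the 3' untranslated region (UTR) of mRNAs and recruiting the enzymes that shorten the poly(A) tail. Splice sites are the boundaries at which introns are removed. The 5' splice site begins an intron and is recognised by the U1 small nuclear ribonucleoprotein. The 3' splice site ends it, behind a pyrimidine-rich tract bound by the U2AF factor. A crosslink there lies on RNA that has not been spliced or on the exon edge of RNA that has.

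Read depth per library was not given in the sources used here, so only counting intervals over peaks are printed. Peak lists give no RNA level, and the labelled cell type could be checked only by whether any cluster lay on marker genes. In each of the 4 libraries 7 of 10 monocytic and myeloid genes carried a cluster. LYZ, CD33, CSF1R, CD68, SPI1 and CEBPA did in every library, MPO only in MOLM13 and ITGAM only in THP1. CD14 and FCGR1A carried none in any library. Of 5 lymphoid genes 1, 2, 1 and 1 did, with CD4 in every library, and of 5 erythroid and megakaryocytic genes 0, 0, 1 and 0 did. Values of 4 libraries are given in the order MOLM13 replicate 1, MOLM13 replicate 2, THP1 replicate 1 and THP1 replicate 2.

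MOLM13 had 244 and 218 splice site peaks and THP1 had 243 and 213. Most were at 5' splice sites, with 164 and 144 in MOLM13, against 165 and 143 in THP1. The 3' splice sites had 80 and 74 peaks in MOLM13 and 78 and 70 in THP1. Peaks at splice sites of noncoding transcripts numbered 23, 19, 21 and 20 and are included in these counts. The mean count of the 5' class was the same in both lines, 154 (SD 14.1 for MOLM13 and 15.6 for THP1, n = 2 each).

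**Figure D1:**
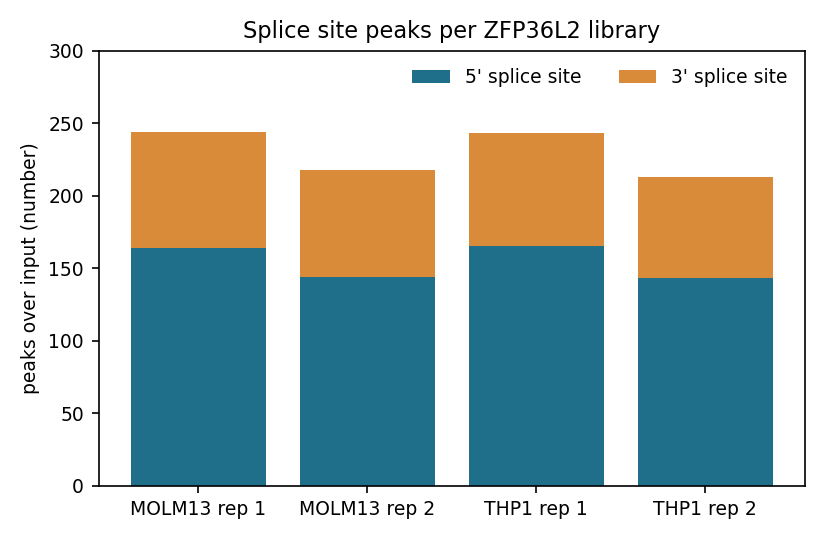
Number of splice site peaks over input (vertical axis) in each ZFP36L2 library (horizontal axis), with 5' splice sites below and 3' splice sites stacked above. Totals were 244 and 218 in MOLM13, against 243 and 213 in THP1, and the 5' class was the larger in every library.

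As a share of all peaks over input, splice sites held 1.69% and 1.51% in MOLM13 and 1.26% and 1.13% in THP1. The means were 1.60% ± 0.127 for MOLM13 and 1.19% ± 0.0923 for THP1 (SD, n = 2 each), a difference of 0.409 percentage points. The lines did not overlap, but a 2 against 2 comparison cannot reach 0.05, and the two-sided exact permutation p was 0.333, the smallest that design gives. The number of splice site peaks was close in the lines (231 ± 18.4 in MOLM13 and 228 ± 21.2 in THP1), while the THP1 tables held more peaks in all, 19325 and 18901 against 14432 and 14425 in MOLM13.

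Splice site peaks were enriched over input to a degree close to that of other peaks. Their median log2 fold was 4.29, 4.31, 4.42 and 4.47, against 4.38, 4.33, 4.51 and 4.47 for all other peaks. The mean of the 4 differences was −0.05, with a two-sided exact sign-flip p of 0.25 over the libraries. Against intronic peaks alone, which had 4.57, 4.48, 4.64 and 4.63, the splice site median was lower in 4 of 4 libraries, by a mean of −0.21 ± 0.05 (SD). Against 3' UTR peaks, which had 3.97, 4.04, 4.05 and 4.02, it was higher in 4 of 4, by a mean of 0.35 ± 0.07. Both comparisons gave an exact sign-flip p of 0.13, the smallest that 4 libraries allow, so no difference within libraries could pass 0.05 in this design.

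The 2 classes differed little from each other in this measure. The median log2 fold over input was 4.35, 4.37, 4.42 and 4.47 at 5' splice sites and 4.12, 4.11, 4.42 and 4.42 at 3' splice sites. The 5' median was higher in 3 of 4 libraries and equal in THP1 replicate 1, and the mean difference of 0.13 had an exact sign-flip p of 0.25. Median peak length was 66, 70.5, 76 and 70 bases over both classes.

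A median stands for a wide range. The strongest splice site peak of a table had a log2 fold over input of 8.23, 7.71, 8.42 and 8.90, while the upper quartile was at 5.35, 5.05, 5.48 and 5.55. The lower quartile was at 3.85, 3.76, 3.88 and 3.90, so that many members lay close to the threshold of the tables and few far above it.

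Most splice site peaks touched no other peak. At 5' splice sites 65.2%, 61.8%, 72.7% and 65.0% had none adjoining, and at 3' splice sites 76.2%, 62.2%, 65.4% and 70.0%. Neighbouring splice site peaks adjoined 22.0%, 20.1%, 13.9% and 19.6% of the 5' class, so that a count of peaks overstates the number of places. A peak in the proximal intron, the part of the intron next to the exon, adjoined 12.2%, 12.5%, 11.5% and 13.3% of the 5' class. At 3' splice sites a coding sequence peak adjoined 11.2%, 16.2%, 14.1% and 5.71%.

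Overlapping splice site peaks of all tables were therefore merged into 383 sites, 246 at 5' and 137 at 3' splice sites. A single library held 161 of them, and 81, 52 and 89 sites were in 2, 3 and 4 libraries. Of the 5' sites 62 (25.2%) were in all 4, and of the 3' sites 27 (19.7%). The 89 shared sites lay in 86 genes and had a median length of 100 bases after merging.

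**Figure D2:**
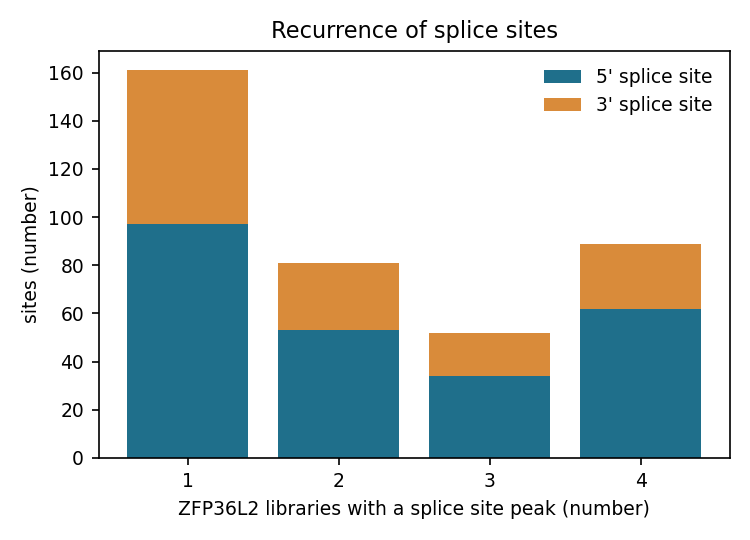
Number of merged splice sites (vertical axis) by how many of the 4 ZFP36L2 libraries had a splice site peak there (horizontal axis), with 5' sites below and 3' sites above. The largest group, 161 sites, was seen in 1 library, and 89 were seen in all 4.

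The strongest shared 5' sites lay on genes of varied function. In what follows the value of a site in a library is that of its peak with the highest fold over input, taken from the authors' deposited tables, and coordinates are 1-based on hg38 and span the merged peaks. NCBP1, the large subunit of the nuclear cap-binding complex, came first (chromosome 9, 97651407 to 97651556, plus strand). As log2, its folds over input were 6.77 and 6.89 in MOLM13, against 7.07 and 6.82 in THP1. Its log2 folds over IgG were 5.78 and 3.54 in MOLM13, against 4.24 and 5.82 in THP1. The lines overlapped over input, and every library was past a log2 fold of 3 over IgG.

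AEBP2, an accessory subunit of Polycomb repressive complex PRC2, had folds over input, as log2, of 7.03 and 6.68 in MOLM13, against 6.30 and 7.62 in THP1 (chromosome 12, 19473408 to 19473496, plus strand). At AEBP2 the lines overlapped. RACGAP1, which organises the central spindle for cytokinesis, had folds over input, as log2, of 7.48 and 5.98 in MOLM13, against 6.33 and 8.63 in THP1 (chromosome 12, 50019634 to 50019715, minus strand). PTPRC, the leukocyte phosphatase CD45, had 7.63 and 5.94 in MOLM13, against 6.73 and 8.90 in THP1 (chromosome 1, 198729234 to 198729311, plus strand). In both of these genes the replicates of a line lay further apart than the lines.

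SBF2, a pseudophosphatase of the myotubularin family, had folds over input, as log2, of 7.85 and 6.83 in MOLM13, against 6.04 and 5.92 in THP1 (chromosome 11, 9989373 to 9989482, minus strand). TRPM7, an ion channel fused to a kinase, had 6.40 and 5.82 in MOLM13, against 6.5 and 7.73 in THP1 (chromosome 15, 50634262 to 50634331, minus strand). The lines did not overlap at either, with SBF2 higher in MOLM13 and TRPM7 higher in THP1. COPS3, a subunit of the COP9 signalosome, had 6.04 and 5.79 in MOLM13, against 6.27 and 6.56 in THP1. CHD8, a chromatin remodelling helicase, had 6.78 and 5.70 in MOLM13, against 6.58 and 6.86 in THP1. RANBP2, a nucleoporin of the cytoplasmic side of the pore, had 7.14 and 6.40 in MOLM13, against 6.90 and 5.64 in THP1. RANBP2 has near-identical copies in the genome, and how reads were divided among them was not given in the sources used here.

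SMS, the gene of spermine synthase, held the strongest shared 3' splice site (chromosome X, 21967085 to 21967191, plus strand). As log2, its folds over input were 8.23 and 7.71 in MOLM13, against 7.61 and 7.77 in THP1. Over IgG they were 4.44 and 3.36 in MOLM13, against 4.37 and 5.77 in THP1, so every library passed both controls. Each library had from 2 to 3 adjoining peaks at this site. Over input the lines overlapped.

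ATG13, a subunit of the kinase complex that starts autophagy, had folds over input, as log2, of 7.55 and 7.16 in MOLM13, against 8.31 and 7.21 in THP1 at a 3' splice site on chromosome 11 (46629853 to 46629953, plus strand). MED13L, of the kinase module of Mediator, had 7.32 and 6.61 in MOLM13, against 6.94 and 7.79 in THP1 (chromosome 12, 116110278 to 116110385, minus strand). IWS1, a partner of the elongation factor SPT6, had 7.25 and 6.52 in MOLM13, against 7.31 and 7.40 in THP1 (chromosome 2, 127503607 to 127503688, minus strand). Of these 3 genes only IWS1 had lines that did not overlap, and by a small margin. PHF12, a subunit of a Sin3 histone deacetylase complex, had 7.35 and 6.67 in MOLM13, against 7.30 and 6.06 in THP1. NUP153, of the nuclear basket of the pore, had 6.76 and 5.64 in MOLM13, against 6.77 and 6.14 in THP1. Both overlapped between lines.

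CEP164, a centriole protein needed for cilia, had folds over input, as log2, of 5.52 and 5.46 in MOLM13, against 7.48 and 6.21 in THP1. Over IgG it had 1.36 and 1.29 in MOLM13, against 3.91 and 4.79 in THP1. THP1 was thus above MOLM13 over each control at this 3' splice site. A site on chromosome 13 (36227414 to 36227544, minus strand) that the authors gave to both CCDC169 and its readthrough gene CCDC169-SOHLH2 ran the other way over input, with 6.93 and 5.60 in MOLM13, against 4.92 and 5.27 in THP1. Over IgG the same site had 5.36 and 4.83 in MOLM13, against 5.26 and 5.27 in THP1, where the lines overlapped. NEURL4, in a noncoding transcript, had 5.34 and 6.76 over input in MOLM13, against 5.49 and 6.53 in THP1, and ATRN, the gene of attractin, had 5.02 and 6.14 in MOLM13, against 4.92 and 4.74 in THP1.

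**Figure D3:**
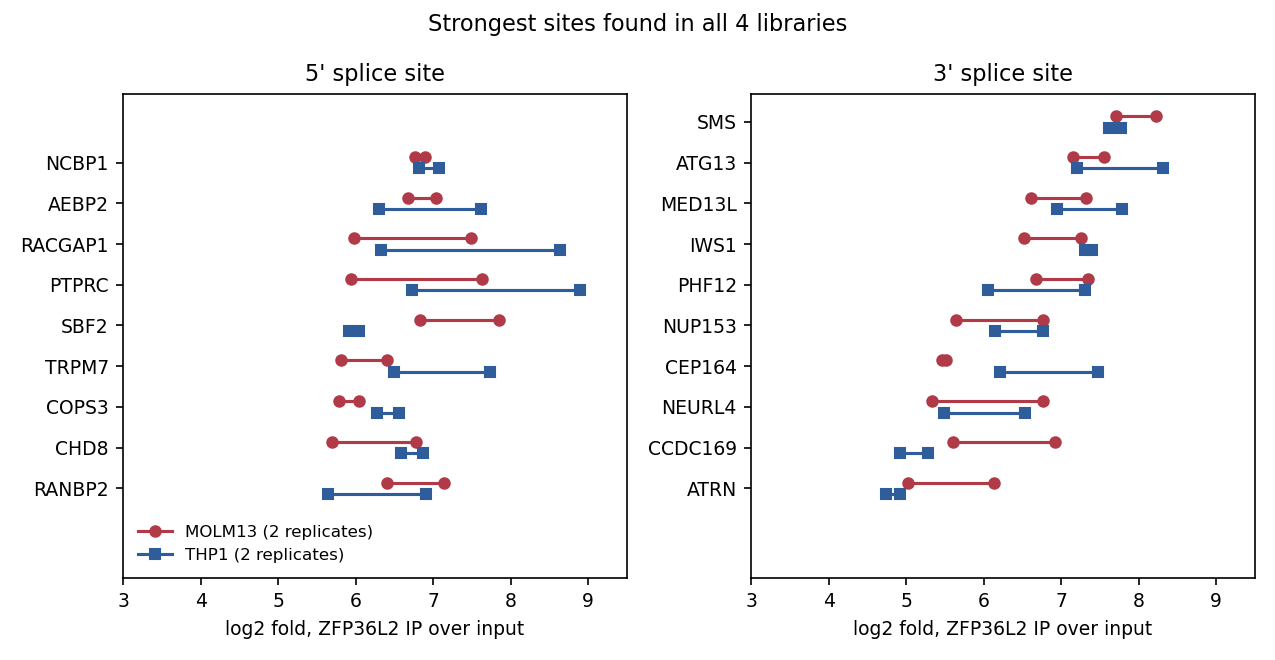
Log2 fold of the ZFP36L2 immunoprecipitate over input (horizontal axis, authors' values) at the strongest shared sites of each class that are reported here, one gene per line, with circles for the 2 MOLM13 replicates and squares for the 2 THP1 replicates joined by a bar. The lines overlapped at 12 of the 19 sites, MOLM13 was higher at 3 and THP1 was higher at 4.

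Over all 89 shared sites the lines were mostly intermixed. Both MOLM13 values were above both THP1 values at 10 sites (11.2%), and both THP1 values were above at 23 (25.8%). Among 6767 merged sites of any annotation found in all 4 tables, the same patterns took 12.4% and 36.4%, so the splice sites did not stand above the background in either direction. The MOLM13 minus THP1 difference of means had a median of −0.39 over the 89 sites and ran down to −3.32 and up to 1.52 on the log2 scale. No difference between lines at a single site was tested.

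The lowest of these differences was at KIFC3, a kinesin that moves to the minus end of microtubules (chromosome 16, 57779750 to 57779822, minus strand). Its 5' splice site had folds over input, as log2, of 4.71 and 5.59 in MOLM13, against 8.34 and 8.59 in THP1. Over IgG it had 2.72 and 0.43 in MOLM13, against 4.78 and 5.0 in THP1. THP1 was higher than MOLM13 in every pairing of libraries over each control. NFYC, a subunit of the CCAAT-binding factor NF-Y, differed less over input, with 5.79 and 4.10 in MOLM13, against 5.52 and 6.0 in THP1, but had 2.49 and 0.57 over IgG in MOLM13, against 4.69 and 5.0 in THP1. RNA levels in the lines were not measured by these files, and their part in such differences was not tested.

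Of the sites found in both replicates of a line, 14 of 138 in MOLM13 (10.1%) and 25 of 139 in THP1 (18.0%) had no peak over input in the other line. For merged sites of any annotation these shares were 10.5% of 8444 and 25.8% of 11291, so line restriction of splice sites was not above the background. Median lengths were compared only for sites in all 4 libraries, 104 bases for any annotation and 100 for splice sites. In the other line a cluster below the peak thresholds was present at 12 of the 14 and at 23 of the 25. Each library held from 140287 to 182486 clusters, and the same share was not computed for sites of any annotation. The MOLM13 sites had low folds. The 5' sites with the highest lower value were on RNF139, a ubiquitin ligase of the endoplasmic reticulum (4.27 and 4.43 over input), CATSPERG, an auxiliary subunit of the sperm calcium channel (4.33 and 4.11), the noncoding gene AC127502.1 (3.93 and 4.08) and MTX3, a metaxin of the mitochondrial outer membrane (4.21 and 3.88). The 3' sites were on TMEM30A, a subunit of lipid flippases (3.85 and 4.43), RFC2, a subunit of the clamp loader of DNA replication (4.54 and 3.76), EIF2AK4, the amino acid sensing kinase GCN2 (4.59 and 3.61), and WDR75, a ribosome assembly factor (3.93 and 3.56).

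The THP1 sites reached somewhat higher values at the 3' class. They were on the noncoding gene AC245100.4 (5.48 and 5.59 over input), EPB41, the membrane skeleton protein 4.1 (5.21 and 5.05), CAMK2D, a calcium and calmodulin dependent kinase (5.03 and 4.84), and SERPINB8, a serine protease inhibitor (4.92 and 4.74). The 5' sites were on the stress kinase TAOK1 (4.63 and 4.59), on the histone demethylase KDM3A (4.68 and 4.33) and on the splicing regulator HNRNPH1 (4.05 and 4.35). EPB41 also had 3.97 and 4.05 over IgG. For comparison, the medians of the shared sites over input were 5.16, 4.80, 5.40 and 5.24.

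Replicates shared most splice site peaks. An overlapping peak over input of any annotation was present in the other replicate for 72.5% and 84.4% of the MOLM13 members and for 75.3% and 85.0% of the THP1 members. For all other peaks the shares were 78.5% and 83.9% in MOLM13, against 81.9% and 85.1% in THP1. The mean difference of −3.04 percentage points had an exact sign-flip p of 0.375, and MOLM13 replicate 2 went the other way. Against intronic peaks the share was lower in 4 of 4 libraries, by a mean of −5.72 points (p = 0.13, exact sign-flip). Against 3' UTR peaks the mean difference of 3.34 points was mixed in sign (p = 0.5, exact sign-flip). Coding sequence peaks were below splice site peaks in every library, with 67.7% and 68.6% in MOLM13, against 73.5% and 72.4% in THP1. The 2 shares of a line are not independent, since both describe the same pair of tables.

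Where a partner was present it was mostly of the same class. A splice site peak of the same class matched 157, 154, 151 and 158 members, and the other class matched 1, 1, 0 and 0. For 19, 29, 32 and 23 members the only partner was a peak annotated to something other than a splice site. Members without a partner, 67, 34, 60 and 32, were weaker: their median log2 fold over input was 3.85, 3.62, 3.83 and 3.81, against 4.71, 4.46, 4.81 and 4.67 for those with one. At 62, 28, 56 and 29 of them the other replicate held a cluster that did not reach the peak table. How often other peaks without a partner had such a cluster was not computed. Over the members that were paired, the folds over input, as log2, of the replicates correlated across peaks with r = 0.715 in MOLM13 (158 pairs) and r = 0.691 in THP1 (151 pairs), a description over peaks that share libraries. Differences between replicates had an SD of 0.87 for MOLM13 and 0.99 for THP1, which is the scale against which a difference at a single site has to be read.

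By gene, 133 genes had a reproducible splice site peak in MOLM13 and 135 in THP1, and 85 were in both lists, which is 63.9% of the MOLM13 list and 63.0% of the THP1 list. Among genes named by any peak in both replicates of a line, 132 of 4291 (3.08%) in MOLM13 and 134 of 5012 (2.67%) in THP1 had a reproducible splice site peak. The lists of 133 and 135 are thus not wholly within that set. The gene with the most splice site peaks in MOLM13 was RFC2, with 8 over both replicates at 3 sites. The 5' site shared by all libraries (chromosome 7) had 5.59 and 5.37 over input in MOLM13, against 4.42 and 6.35 in THP1. In THP1 it was BIN2, a membrane-shaping BAR domain protein, with 5 peaks at 1 site on chromosome 12. Its strongest peaks had 3.49 and 4.28 over input in MOLM13, against 5.15 and 5.01 in THP1, with THP1 higher.

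The IgG control gave a stricter reading of the members. A peak passed IgG when the log2 fold and the −log10 p of the same cluster over IgG were both at least 3. Of the members with a value over IgG, 95 of 244 (38.9%), 53 of 215 (24.7%), 90 of 242 (37.2%) and 111 of 213 (52.1%) passed. Among all peaks over input the shares were 45%, 28.1%, 43.2% and 59.1%, and among all clusters, with no requirement over input, 5.11%, 2.49%, 5.74% and 8.36%. The Wilson 95% intervals of the members' shares were 33.0% to 45.2%, 19.4% to 30.8%, 31.3% to 43.4% and 45.4% to 58.7%, and cover counting error only.

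The passing share of the members was thus below that of the rest of the peaks in every library. All other peaks passed IgG in 45.1%, 28.1%, 43.3% and 59.2%. The mean difference was −5.69 ± 1.53 percentage points (SD over 4 libraries), with an exact sign-flip p of 0.13, the smallest possible. Intronic peaks passed in 40.9%, 20.5%, 41.0% and 58.8%, and against them the mean difference of −2.06 points was mixed in sign, with MOLM13 replicate 2 higher for splice sites (p = 0.5, exact sign-flip). The widest gap was to 3' UTR peaks, which passed in 59%, 49.7%, 54.6% and 65.1%. There the mean difference was −18.9 ± 5.06 points, and splice sites were lower in 4 of 4 libraries (p = 0.13, exact sign-flip).

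Whether every library placed the 2 classes of splice site in the same order over IgG depended on the peaks and the threshold. At 5' splice sites 37.8%, 25.5%, 33.3% and 51.0% of peaks passed, and at 3' splice sites 41.2%, 23.0%, 45.5% and 54.3%. The mean difference of −4.06 points had mixed signs and an exact sign-flip p of 0.25. It was lower at 5' splice sites in 4 of 4 libraries among peaks with a log2 fold over input of 4 or more (mean −8.71 points) and with touching peaks merged (mean −6.61 points), with an exact sign-flip p of 0.13 in each, and it turned to 1.75 points with a log2 threshold of 1 over IgG. The median log2 fold over IgG was 2.91, 2.59, 2.93 and 3.36 at 5' splice sites and 2.95, 2.66, 3.26 and 3.57 at 3' splice sites, lower at 5' splice sites in 4 of 4 libraries by a mean of −0.16 (p = 0.13, exact sign-flip).

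**Figure D4:**
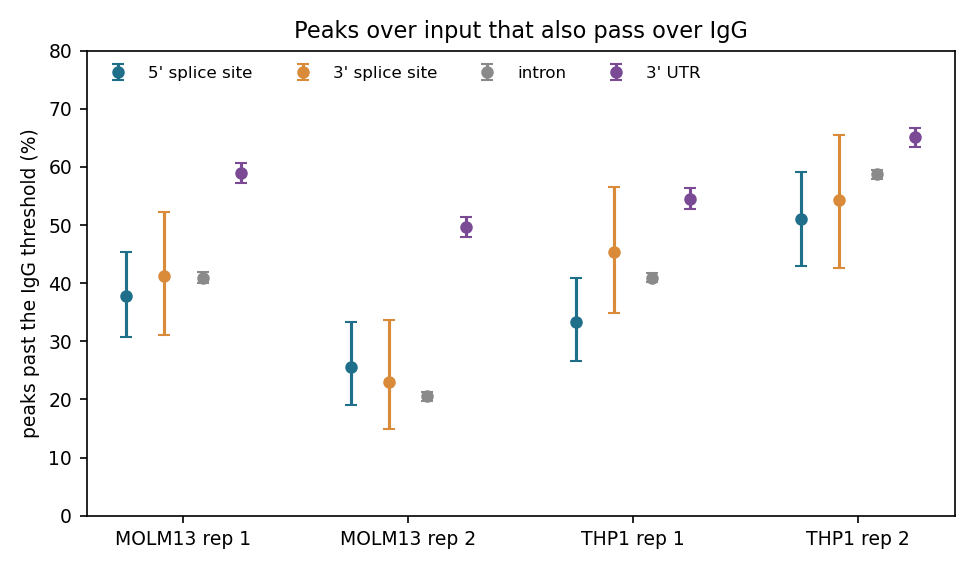
Percentage of peaks over input that also passed the IgG threshold (vertical axis) in each ZFP36L2 library (horizontal axis), for 5' splice sites, 3' splice sites, introns and 3' UTRs, with Wilson 95% intervals that cover counting error only. Both splice site classes lay near the introns and below the 3' UTRs in every library, although the 3' splice site intervals of both THP1 replicates reached the 3' UTR share.

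The folds over IgG differed between replicates as well. MOLM13 replicate 1 was above replicate 2 by a mean of 0.62 over 157 paired members, and THP1 replicate 1 was below replicate 2 by 0.57 over 151, on the log2 scale. The median over all clusters of the IgG lists, 0.28, −0.60, 0.0019 and 0.38, was ordered the same way within each line. The correlation between replicates over IgG was r = 0.421 in MOLM13 and r = 0.616 in THP1, again across peaks. For each member the log2 fold over input minus that over IgG took few values, 32, 28, 26 and 24 distinct ones to the decimals compared, and the commonest was held by 25.4%, 32.1%, 37.2% and 46.0% of members. Among all other peaks the commonest difference of the same library was held by 22.9%, 23.8%, 32.1% and 39.5%, so repeated values were a feature of the tables as a whole.

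Of the 89 shared sites 17 (19.1%) passed IgG in all 4 libraries, 11 at 5' and 6 at 3' splice sites. Among the 6767 merged sites of any annotation 20.6% did, which is close. By library 51, 27, 52 and 66 of the 89 passed. Counts by library were not made for the merged sites of any annotation, so these stand without a background. Among the 19 strongest shared sites reported here 9 passed in all 4, NCBP1, RACGAP1, TRPM7 and RANBP2 at 5' splice sites and SMS, MED13L, PHF12, NEURL4 and the CCDC169 site at 3' splice sites. The 19 were picked by fold over input, which uses the same immunoprecipitates as the fold over IgG. Their passing share therefore cannot be set against that of sites not so picked. Ranked by the lower of the 2 replicates, the highest folds over IgG in MOLM13 were at NEURL4, with 5.94 and 5.41, and the CCDC169 site. The MED13L site (5.34 and 4.67), the SBF2 site (4.99 and 4.47) and the PHF12 site (4.36 and 4.32) followed. In THP1, by the same measure, they were at the CCDC169 site, ATG13 (5.07 and 5.21), IWS1 (5.06 and 4.81), KIFC3 and NFYC. Single replicates reached higher elsewhere, as at RACGAP1 with 4.08 and 7.63 in THP1. Most of the sites so ranked were of the 3' class, which held 47 of the 138 reproducible sites in MOLM13 and 45 of the 139 in THP1. They are few and were picked by this value, so no trait of the class can be read from them.

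Some reproducible sites had little enrichment over IgG although they passed over input. Ranked by the higher of the 2 replicates, the lowest in MOLM13 were at CATSPERG (1.34 and 1.17), CEP164 (1.36 and 1.29), GPN1, a GTPase of RNA polymerase II assembly (1.13 and 1.49), and BPTF, a subunit of the NURF remodeller (1.65 and 1.35). In THP1, by the same measure, they were at PDP2, a pyruvate dehydrogenase phosphatase (2.04 and 0.70), COMMD4, of the Commander complex (1.97 and 2.08), RABEPK (2.04 and 2.13) and RPS21. RPS21, a protein of the small ribosomal subunit (chromosome 20, 62387188 to 62387256, plus strand), was below IgG. As log2, its folds over input were 4.11 and 4.86 in THP1, and over IgG −1.80 and −2.16. In MOLM13 replicate 2 the site had 4.31 over input and −0.37 over IgG.

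Peaks at or below IgG were rare, 1, 2, 2 and 2 of the members, which is 0.410%, 0.930%, 0.826% and 0.939%, against 0.236%, 1.17%, 0.233% and 0.652% of all peaks over input. They lay on RPS21, CERT1, GNAS and PFKFB4, of which the last 3 are named because of these values, and all were at 5' splice sites. CERT1, the ceramide transfer protein, had the lowest value of all, −4.00 over IgG in MOLM13 replicate 1 with 4.08 over input, and −2.81 over IgG in THP1 replicate 1 with 4.05 over input. The other replicate of each line had no peak over input there. The 2 CERT1 peaks are shown because they are among the few members whose letters are in the sequence tables used here, and because they share bases while belonging to different lines. Both lie on the minus strand of hg38, upstream of the RefSeq gene start, and the letters, from RefSeq windows of GRCh38.p14, read 5′ to 3′ with the shared bases in capitals.
CERT1 in MOLM13 replicate 1, chr5:75511744-75511754: GGTTCGGGAGg
CERT1 in THP1 replicate 1, chr5:75511745-75511756: agGGTTCGGGAG
They share 10 bases, and 72.7% and 66.7% of their letters were G or C. The AU-rich core pentamer ATTTA, searched on both strands (its reverse complement is TAAAT), was in neither. In 35116 RefSeq windows at the same place relative to the gene start, 1.26% of stretches as long as the MOLM13 peak and 1.48% of those as long as the THP1 peak held it. No genome sequence was used for the other members, so their motifs were not analysed here.

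Splice site peaks were spread along the length of genes. A position could be given to 227, 205, 226 and 199 of them. With the gene start at 0 and its end at 1, their median position was 0.53, 0.49, 0.53 and 0.56. Intronic peaks had medians between 0.39 and 0.40, and the splice site median was higher in 4 of 4 libraries, by a mean of 0.132 ± 0.0283 of the gene length (SD, exact sign-flip p = 0.13). Against peaks of the proximal intron alone the mean difference was −0.00298 and mixed in sign (p = 0.875, exact sign-flip). The 3' UTR peaks had medians near 0.97. The first 10% of the gene length held 8.80% ± 0.0213 of the MOLM13 members with a position and 9.42% ± 0.181 of the THP1 members with one (SD, n = 2 each).

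**Figure D5:**
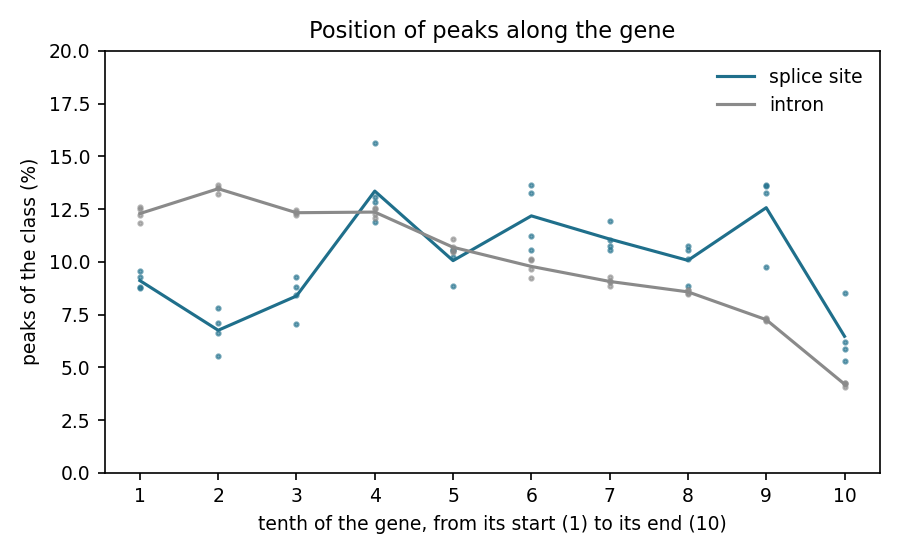
Percentage of peaks of a class (vertical axis) in each of 10 equal parts of the gene from its start to its end (horizontal axis), for splice site peaks and intronic peaks over input, with points for the 4 ZFP36L2 libraries and a line through their mean. Intronic peaks thinned towards the gene end, while splice site peaks did not fall steadily, and their median position was higher in 4 of 4 libraries.

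Genes with a splice site peak often had other peaks too. They numbered 210, 187, 218 and 186, and 162, 143, 176 and 150 of them had a peak of another annotation. A 3' UTR peak was present in 25.2%, 23.5%, 24.3% and 28.5% of the genes with a splice site peak, against 38.7%, 39.3%, 34.3% and 34.6% of the 4784, 4580, 5456 and 5319 other bound genes. Since another gene is in that list only by a peak elsewhere, the fairer set is the splice site genes with a further peak. Of these 32.7%, 30.8%, 30.1% and 35.3% had a 3' UTR peak, lower than the other genes in 3 libraries and not in THP1 replicate 2, a difference that was not tested. An intronic peak was on 89.5%, 89.5%, 93.2% and 90.0% of them, against 71.4%, 70.4%, 77.0% and 75.5% of the other genes, also not tested. The sets were still not alike, since all splice site genes had a median of 3, 3, 4 and 4 peaks, against 2 in other genes.

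Gene lists chosen from knowledge of the protein and the tissue, with earlier results of these data known, held few members. Of 30 reported targets of the ZFP36 family, 21 were bound in both MOLM13 replicates and 25 in both THP1 replicates, and 0 had a splice site peak in any table. Of 32 core spliceosome subunits 12 were bound in both replicates of each line, and 0 had one. Of 35 SR proteins and hnRNP splicing regulators 18 were bound in MOLM13 and 21 in THP1, and a reproducible splice site peak was on 1 in MOLM13 and 2 in THP1. These counts stand beside a background of 3.08% of bound genes in MOLM13 and 2.67% in THP1, at which lists this short would be expected to hold few or none.

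The splicing regulator with sites in both lines was CLK4, a kinase of SR proteins, which had 2 sites in all 4 libraries. At chromosome 5, 178613343 to 178613422 (minus strand), as log2, its folds over input were 5.04 and 4.91 in MOLM13, against 4.42 and 3.90 in THP1. At 178616732 to 178616841 they were 4.27 and 3.71 in MOLM13, against 3.68 and 3.84 in THP1. Over IgG neither site passed in any library, with 2.47 and 1.23 in MOLM13, against 3.17 and 2.90 in THP1 at the first. HNRNPH1, which binds G-rich RNA in splicing control, had its 5' site in THP1 (4.05 and 4.35 over input, 3.55 and 2.93 over IgG), and a 3' splice site peak in THP1 replicate 1 alone, with 3.26. PTBP1, a repressor of exon inclusion, had a 5' splice site peak in MOLM13 replicate 2 alone, with 3.13 over input.

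Of 35 mRNA decay factors 21 were bound in MOLM13 and 25 in THP1. A reproducible splice site peak was on 2 in MOLM13, CNOT1 and SMG1, and on 1 in THP1, CNOT1. The background was 3.08% of bound genes in MOLM13 and 2.67% in THP1. CNOT1, the scaffold of the CCR4-NOT deadenylase that TIS11 proteins recruit, had folds over input, as log2, of 6.51 and 5.53 in MOLM13, against 7.06 and 5.95 in THP1 at a 5' splice site (chromosome 16, 58533995 to 58534127, minus strand). Over IgG it had 3.36 and 2.76 in MOLM13, against 4.23 and 3.95 in THP1, past the threshold in every library but MOLM13 replicate 2. SMG1, the kinase of nonsense-mediated decay, had a 3' splice site peak with 3.42 and 3.40 over input in MOLM13 and with 3.77 in THP1 replicate 2 alone. CNOT1 was thus the strongest site of any list, and SMG1 was close to the threshold.

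Of 33 leukaemia chromatin regulators 26 were bound in MOLM13 and 27 in THP1. A reproducible splice site peak was on 2 in MOLM13 and 0 in THP1, beside the same background of 3.08% and 2.67%. SETD2, the methyltransferase of histone H3 lysine 36, had a 5' splice site peak with 4.14 and 5.75 over input in MOLM13 and with 5.78 in THP1 replicate 1, where THP1 replicate 2 had no splice site peak. EP300, a histone acetyltransferase, had a weak 3' splice site peak in MOLM13, 3.85 and 3.04. TET1, which oxidises methylated cytosine, had a peak in THP1 replicate 1 alone, with 3.73. Of 26 myeloid transcription factors IRF1 (4.01 over input and 0.44 over IgG), and of 34 genes of signalling feedback and kinase cascades JAK2 (3.68 and 1.70), had a 5' splice site peak in MOLM13 replicate 1 alone. In neither list was a splice site peak reproducible in a line. Of the transcription factors 12 were bound in both MOLM13 replicates and 14 in both THP1 replicates. Of the signalling genes 21 and 24 were. At the background of 3.08% and 2.67% of bound genes, lists this short would be expected to hold few or none.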

How the data were processed

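The 4 deposited tables over input hold the authors' log2 fold and −log10 p per peak, with gene and annotation, and the 4 IgG lists hold the same values over IgG for every cluster. That −log10 p reaches at most 400. Per the submitters' processing notes cutadapt 1.14, STAR 2.5.0c, Picard 2.6.0 and edgeR were used, and the builds hg19, GRCh37 and hg38 are named without roles. The peak caller, the test behind p, the scaling and the depth were not given in the sources used here. Per the labels' protocols cells were irradiated with 400 mJ/cm2 of ultraviolet light of 254 nm, material of about 30 to 105 kDa was taken, and input was 2% of the sample. Peaks were called per library, not on pooled replicates.

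IgG values were taken from the cluster with identical coordinates, which 914 of 918 members had. The other 4 members, on RNASEK (2 peaks), ZNF207 and AC004951.3, were left out of IgG shares. Overlap meant at least 1 shared base on the same strand. A peak was reproducible when it overlapped a splice site peak of the other replicate. Of 358 gene names 328 matched a RefSeq symbol of GRCh38.p14, 9 of them as older symbols. Differences within libraries were tested with two-sided exact sign-flip permutation over the 4 immunoprecipitates, and lines with an exact permutation test of 2 against 2. Scripts were tested on simulated data (python 3.11.15, pandas 2.3.3, numpy 2.4.6, scipy 1.17.1, matplotlib 3.10.9).

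Genes were named by rule: per class the 10 shared sites with the highest lowest fold over input, per line and class 4 sites without a peak in the other line, per line the 5 highest and 4 lowest reproducible sites over IgG, up to 4 members per list, and the gene with most peaks per line. Of the genes so named, 2 are not reported here. Members and lists were chosen with earlier results of these data known. Alternatives were stricter thresholds, merging of touching peaks, other overlap rules, other IgG thresholds, other comparison classes and leaving out each library.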

Additional observations from a re-analysis of the deposited data

Results flagged for a closer look

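The median position of splice site peaks along the gene, set against that of proximal intron peaks, went in opposite directions in the lines. It was lower in both MOLM13 libraries, by a mean of −0.0213 of the gene length, and higher in both THP1 libraries, by a mean of 0.0153. By library the differences were −0.0030 and −0.040 in MOLM13, against 0.0040 and 0.027 in THP1, so each mean rests mostly on replicate 2 and without it the difference is −0.0030 for MOLM13 and 0.0040 for THP1. The difference between the lines was not tested.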

How the results depend on the processing

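The lower IgG-passing share of splice site peaks against all other peaks kept its sign under every alternative run, from −18.9 points against 3' UTR peaks to −2.06 points against introns, and the MOLM13 excess in share kept its sign in every alternative run too (0.290 to 0.499 points). The median log2 fold over input against all other peaks changed sign with peaks of −log10 p of at least 5 (0.0045), with touching peaks merged (0.028) and, in an alternative chosen after seeing the data, against 3' UTR peaks (0.35). The IgG-passing share of 5' against 3' splice sites turned to 1.75 points with the log2 threshold of 1, while it was −8.71 points at a log2 fold over input of 4 or more, −7.51 points at a −log10 p of 5 or more and −6.61 points with touching peaks merged. Replicate overlap against all other peaks turned to 0.43 points when identical coordinates were required. It shrank to −0.78 points with peaks of −log10 p of at least 5 and to −0.97 points with touching peaks merged. In these alternatives the partners were still taken from the full peak lists. Genes with a reproducible splice site peak fell to 75 in MOLM13 and 52 in both lines when the log2 fold over input had to be at least 4, and to 33 in MOLM13, 54 in THP1 and 17 in both when both peaks had to pass IgG. Shared sites numbered 54 when every peak had to reach a log2 fold of 4 and 17 with IgG passed in all 4. Leaving out THP1 replicate 1 moved the IgG-passing difference between the classes to −1.37 points, and leaving out 1 library at a time put the overlap difference between −4.23 and −1.86 points. For the overlap, the library left out still served as partner of the other replicate of its line. That range therefore cannot show how the overlap depends on a library. In all, 85 of the recomputed values were counted as unchanged, 7 moved and 5 reversed. A difference counted as unchanged when it kept its sign, whatever its size. Gene counts so labelled included 91 in THP1 at a log2 fold over input of at least 4. With any peak over input as partner they were 175 in MOLM13, 188 in THP1 and 115 in both.

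The labels do not say that same-numbered libraries belong together. With the replicate block, the line difference in share was again 0.409 points, and the IgG-passing differences were again −5.69 points against other peaks and −4.06 points between the classes, by construction, with an exact p of 0.5 in each. The motif shares under splice site peaks were not run, since no genome sequence was used. The depth is unknown, and the smallest p that 4 libraries allow, rounded, is 0.13. The tables hold only peaks past a log2 fold of 3, so medians describe enriched peaks alone. Both THP1 tables may rest on 1 input library.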
